A study of Mus musculus with 10 samples.

Results

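Satellite-containing transcripts are genes whose annotated exons consist of copies of the mouse major satellite, and 10 of them were followed here: Gm10800, Gm10801, Gm26870, Gm11168, Gm10715, Gm10717, Gm10718, Gm10720, Gm10721 and Gm10722. They are 10 of the 46959 genes in the deposited table, and they had been picked for their high share of counts in wild-type (WT) splenic cultures. Their level in those cultures, and every contrast of the WT LPS cultures with KOKI cultures or with bone, is therefore a description with no test.

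The study sequenced RNA from 10 mouse preparations that the labels call femoral or splenic B cells. The splenic libraries came from splenocytes without CD43-positive cells, kept for 2 days in RPMI medium with 10% FCS. There were 2 cultures from WT mice (BLACK-6 in the labels) with LPS at 5 µg/ml. LPS, lipopolysaccharide, comes from bacterial walls and makes B cells divide. The other cultures were 2 from WT mice with the same LPS dose and 200 ng/ml SAHA, an inhibitor of histone deacetylases, and 2 from KOKI mice with LPS. One label field of the KOKI cultures also names SAHA. Their titles and the design text name LPS alone, and the group follows these. The femoral libraries are labelled B cells and were pools of 3 mice each. Both controls were RAG2 and gamma c deficient, 1 KOKI pool had that same background, and 1 KOKI pool was deficient for RAG2 alone, so every femoral group lacked RAG2. The labels neither spell out KOKI nor give an age. They do not say that splenic replicates came from separate mice, so a p-value reflects the spread among libraries, which may be technical.

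Total counts ran from 18614742 to 29314068 per library. The summed level of 8 mature B cell markers, in counts scaled to TMM library sizes (CPM), was 2630.2 to 3610.2 in the splenic libraries and 11.6 to 14.2 in the femoral ones. The femoral label was thus not matched by mature B cell markers, while 8 neutrophil markers summed to 11600 to 19990 CPM there and 0.781 to 4.07 CPM in spleen. One KOKI culture, replicate 2, had 8499 counts of Xist and 20 of Ddx3y, against at most 9 and at least 1853 in each other library.

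Major satellite, also called gamma satellite, is an AT-rich tandem repeat that fills the pericentromeric heterochromatin of mouse chromosomes. It is packed by histone H3 lysine 9 methylation, placed by the SUV39H enzymes and read by HP1 proteins, and by DNA methylation, and it is known to be transcribed from both strands at low levels. Most of it lies outside the assembled chromosomes, and a few assembled remnants carry gene models, among which these genes are found.

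These sequences are shown because they define what such a row counts. The first is the opening 234 bases of the Gm26870-202 transcript, the one whose copies were most alike, and the second is its reverse complement. The next 3 are stretches of transcripts of the T-rich genes aligned to that reverse complement, with capitals at bases substituted or inserted against it. All were read 5′ to 3′ from GENCODE M21 transcripts.
Gm26870-202 unit: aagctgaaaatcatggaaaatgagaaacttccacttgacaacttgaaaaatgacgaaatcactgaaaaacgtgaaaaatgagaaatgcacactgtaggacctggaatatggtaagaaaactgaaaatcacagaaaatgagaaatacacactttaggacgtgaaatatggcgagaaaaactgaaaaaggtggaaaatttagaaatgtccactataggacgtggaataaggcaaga
Reverse complement of unit: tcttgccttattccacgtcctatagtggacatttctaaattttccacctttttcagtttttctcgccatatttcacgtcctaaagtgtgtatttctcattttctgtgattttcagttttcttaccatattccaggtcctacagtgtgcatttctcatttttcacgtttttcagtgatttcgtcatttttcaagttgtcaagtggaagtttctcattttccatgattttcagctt
Gm10800-201: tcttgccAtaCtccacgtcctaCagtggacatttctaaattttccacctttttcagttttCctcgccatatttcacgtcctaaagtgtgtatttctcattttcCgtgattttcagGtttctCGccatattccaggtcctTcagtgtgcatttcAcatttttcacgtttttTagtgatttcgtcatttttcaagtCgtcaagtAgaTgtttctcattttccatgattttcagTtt
Gm10801-201: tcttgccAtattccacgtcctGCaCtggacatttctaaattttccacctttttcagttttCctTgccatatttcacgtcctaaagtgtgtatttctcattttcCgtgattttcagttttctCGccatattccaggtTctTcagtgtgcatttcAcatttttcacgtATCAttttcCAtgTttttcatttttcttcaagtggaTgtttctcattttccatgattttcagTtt
Gm10722-201: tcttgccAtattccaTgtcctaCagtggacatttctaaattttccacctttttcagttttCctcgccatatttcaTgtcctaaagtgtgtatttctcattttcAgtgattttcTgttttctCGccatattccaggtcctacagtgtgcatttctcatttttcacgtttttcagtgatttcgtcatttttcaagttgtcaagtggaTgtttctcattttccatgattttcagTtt
The Gm10800 stretch, bases 252 to 485 of its transcript, had 15 substitutions and was 93.6% identical to the unit. The Gm10722 stretch had 11 substitutions, at 95.3% identity. The Gm10801 stretch was the most diverged of all the transcripts, with 17 substitutions, 4 inserted and 7 missing bases, at 88.2% identity.

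The 10 genes had 24 transcripts in GENCODE M21. Shifted against itself, 18 of the 24 matched best at 234 bases and 4 at 237 bases, while Gm10800-201 matched best at 225 and Gm10801-201 at 231 bases. Identity at the best shift was 95.9% for Gm26870-202, 65.2% for Gm10722-201, 56.3% for Gm10800-201 and 52.7% for Gm10801-201, against a median near 31% over all shifts tried for each. A shorter period of 58 bases was present in all 24, at 47.3% to 60.4% identity. GC content was low, between 34.2% and 36.2%.

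**Figure D1:**
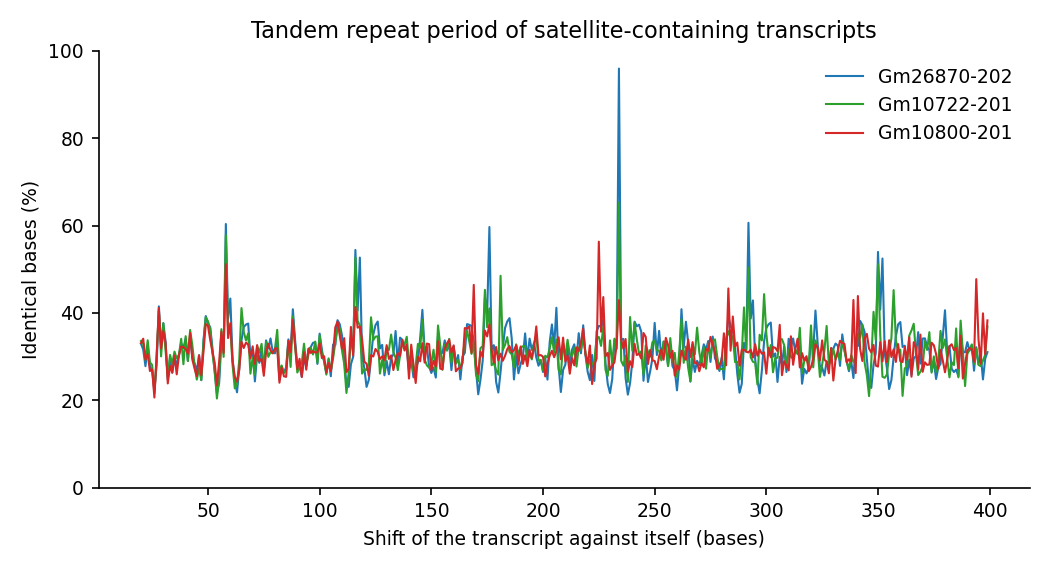
Identity of 3 member transcripts, 1 line each, with themselves (y axis, percent of bases) at each shift (x axis, bases). Gm26870-202 reaches 95.9% at 234 bases, and the other lines peak lower, at 225 to 234 bases, over a comb of peaks near multiples of 58 bases.

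The transcripts fell into 2 strands of the same repeat. All 21 transcripts of 9 genes were T-rich, with 45.8% to 48.6% T, and matched the reverse complement of the unit. The 3 transcripts of Gm26870 were A-rich, with 45.5% to 46.5% A. Reads from one strand of the satellite therefore match Gm26870 and reads from the other match the other 9.

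In mm10, Gm10801 lies on chromosome 2 at chr2:98662237-98664083 (plus strand, 504 exonic bases) and Gm10800 at chr2:98666547-98667301 (minus strand, 660 exonic bases). The other 8 lie at the start of the assembled chromosome 9. Gm26870, annotated as a lincRNA, covers chr9:3000282-3038313 on the minus strand with 2692 exonic bases. On the plus strand opposite it lie Gm10722 (chr9:3000922-3002330), Gm11168 (chr9:3003346-3006948), Gm10721 (chr9:3013140-3014344), Gm10720 (chr9:3015654-3017210), Gm10718 (chr9:3023547-3025218), Gm10717 (chr9:3025417-3033289) and Gm10715 (chr9:3036877-3038316), which ends just past it. GENCODE M21 labels all but Gm26870 as protein-coding and annotates no UTR for any of the 10.

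The rows cannot be separated fully by sequence. Of the 31-base words of a gene's transcripts, the share found in another member was 36.2% for Gm10801, 42.0% for Gm10800, 67.9% for Gm26870 and 89.3% for Gm10721, the highest. With 50-base words these shares were 17.1%, 27.4%, 58.4% and 81.2%. A word and its reverse complement were taken as the same. The shares of Gm26870, the only A-rich gene, therefore do not show overlap on the same strand. How reads that match several places were counted is not stated in the labels, so the split of counts among members, and between members and satellite outside the assembly, is uncertain. The sum over the members does not depend on the split among them. Because the members share sequence, the counts of members given below are not counts of independent genes.

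Exons of Gm26870 were 54.6% covered by exons on the opposite strand, and those of Gm10721 41.1%. The labels do not state the strand setting of the counting. Across the table, of 408 rows wholly covered by exons of the opposite strand 30.4% had at least 10 counts over the libraries, against 0.353% of 567 rows wholly covered on the same strand. Rows on opposite strands were thus counted apart.

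The 10 genes took a far larger share of the counts in splenic cultures, WT above all, than in femur. Their summed share of all counts was 0.0151% and 0.0461% in the femoral controls, 0.0759% in the KOKI pool deficient for RAG2 and gamma c, and 0.0916% in the KOKI pool deficient for RAG2. It was 2.03% and 9.14% in the WT LPS cultures, 6.78% and 10.7% in the WT LPS+SAHA cultures, and 0.788% and 0.533% in the KOKI cultures. Every splenic library was above every femoral one, and every WT culture above both KOKI cultures. In bulk RNA, fewer cells of a type and less RNA per cell cannot be told apart.

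On the CPM scale the summed level was 265 ± 192 (SD, n = 2) in femoral controls, 807 ± 131 (n = 2) in femoral KOKI, 61130 ± 54093 (n = 2) in WT LPS, 87495 ± 15395 (n = 2) in WT LPS+SAHA and 7075 ± 1995 (n = 2) in KOKI cultures. The spread within a group was itself large. The higher library was 4.34 times the lower one in WT LPS and 3.12 times in femoral controls, against 1.26 times in femoral KOKI and 1.28 times in WT LPS+SAHA.

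**Figure D2:**
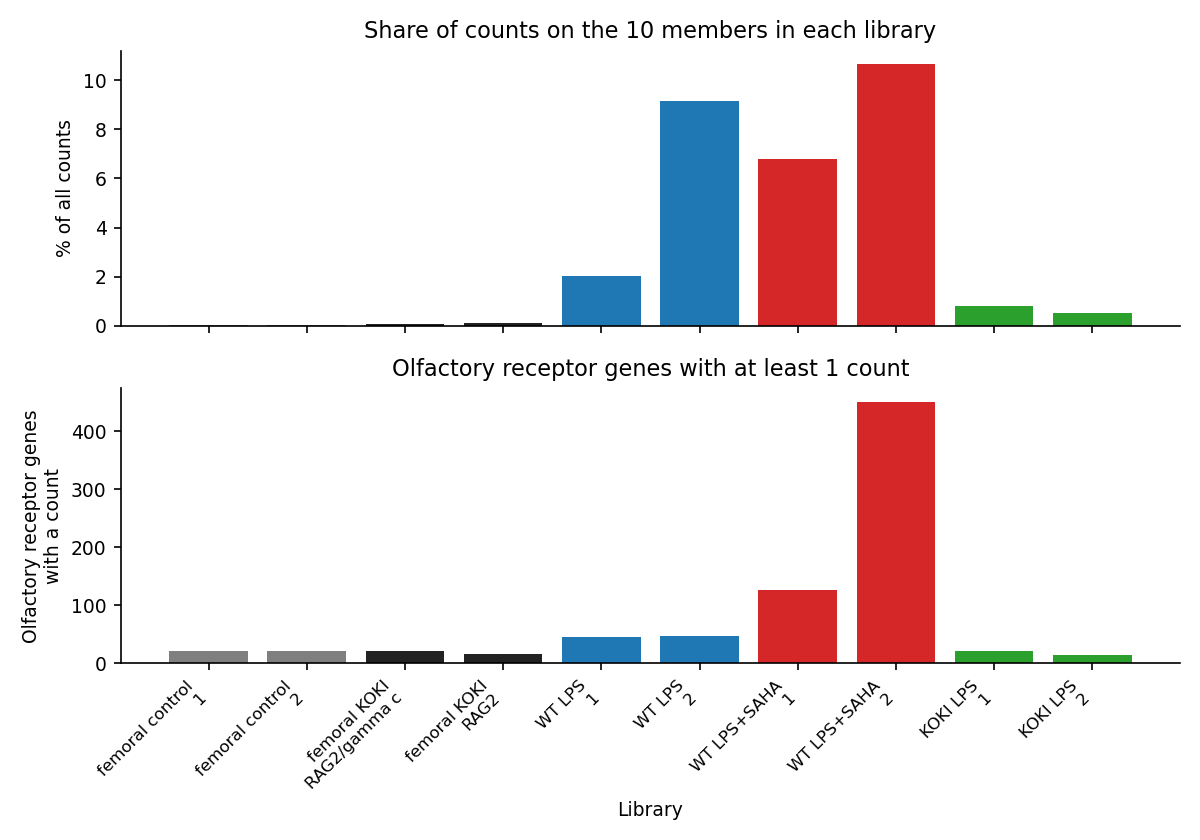
The upper bars give the share of all counts on the 10 genes in each library (percent), and the lower bars give the number of olfactory receptor genes with at least 1 count, of 1292 in the table. WT LPS replicates sit at 2.03% and 9.14%, and the lower bars reach 451 genes in WT LPS+SAHA replicate 2.

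Gm10800, on chromosome 2, carried most of the counts. Its level was 64.1 and 231 CPM in femoral controls, 420 and 545 in femoral KOKI, 13748 and 59484 in WT LPS, 47743 and 55716 in WT LPS+SAHA, and 4989 and 3419 in KOKI cultures. By counts it ranked 1 among all genes in WT LPS replicate 2 and in WT LPS+SAHA replicate 2. Its rank was 4 in WT LPS replicate 1, 3 in WT LPS+SAHA replicate 1, and 11 and 15 in the KOKI cultures.

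The A-rich Gm26870 was next by counts. Its level was 38.6 and 85.5 CPM in femoral controls, 143 and 193 in femoral KOKI, 4960 and 20958 in WT LPS, 14365 and 24579 in WT LPS+SAHA, and 1802 and 1175 in KOKI cultures. Its values had the same order of groups as Gm10800, with WT LPS replicate 1 the lowest of the WT cultures for both.

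Per kilobase of exon, which is the scale for comparing genes, Gm10800 stood first in all 10 libraries, with a mean of 28236 CPM per kb over the libraries. Gm26870 (2537), Gm10718 (2209), Gm10801 (2043) and Gm10722 (1390) exchanged places between ranks 2 and 5, so their order was not stable across libraries. Gm11168 (1081), Gm10721 (160) and Gm10717 (67.2) held ranks 6, 7 and 8 in every library, and Gm10720 (24.7) and Gm10715 (22.4) exchanged the last places. These copies of 1 repeat thus spanned 3 orders of magnitude in assigned counts per length. The split of counts among members is uncertain, and the part of read assignment in this spread was not tested.

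**Figure D3:**
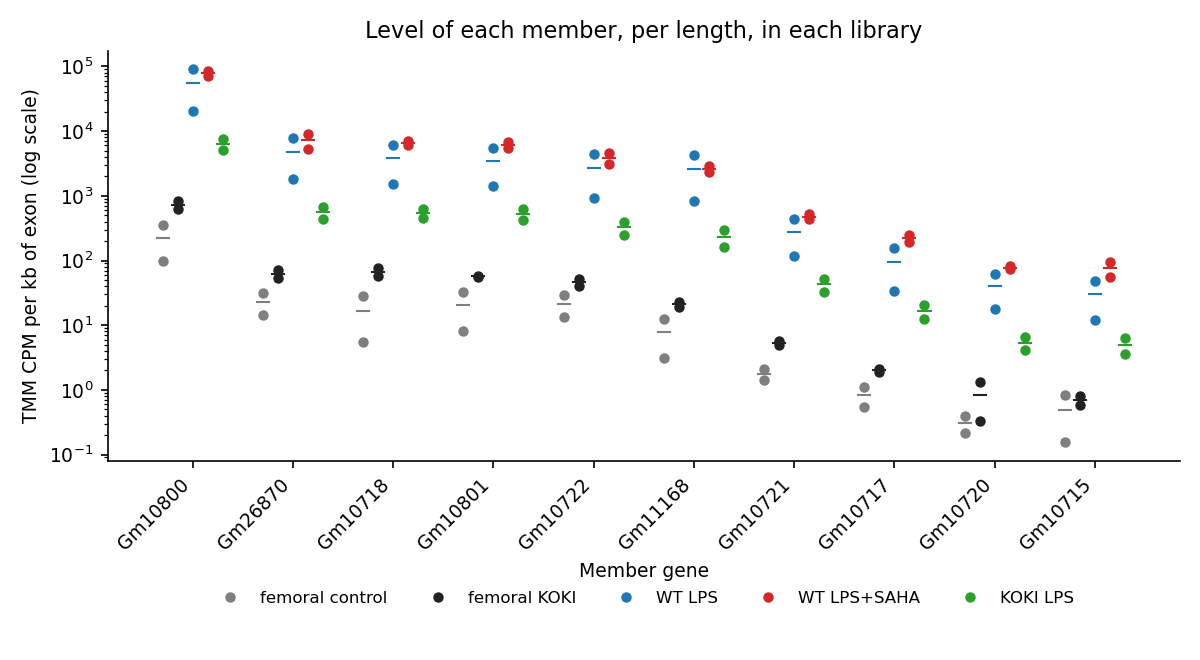
Level of each gene in CPM per kb of exon (log y axis), with 1 point per library, coloured by group, and a line at each group mean. The groups keep a like order for every gene, from femoral control at the bottom to the WT cultures at the top, and Gm10800 is highest.

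The make-up of the sum varied less than the sum. Over the libraries Gm10800 took 49.9% to 62.3% of the members' counts (median 59.3%) and Gm26870 18.8% to 30.0% (median 21.3%). Gm11168 took 4.64% to 8.20%, Gm10718 2.94% to 5.71%, Gm10801 2.78% to 4.06% and Gm10722 2.64% to 6.67%. Gm10717, Gm10721, Gm10715 and Gm10720 each stayed under 2%, with medians of 0.959%, 0.373%, 0.0687% and 0.0537%.

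**Figure D4:**
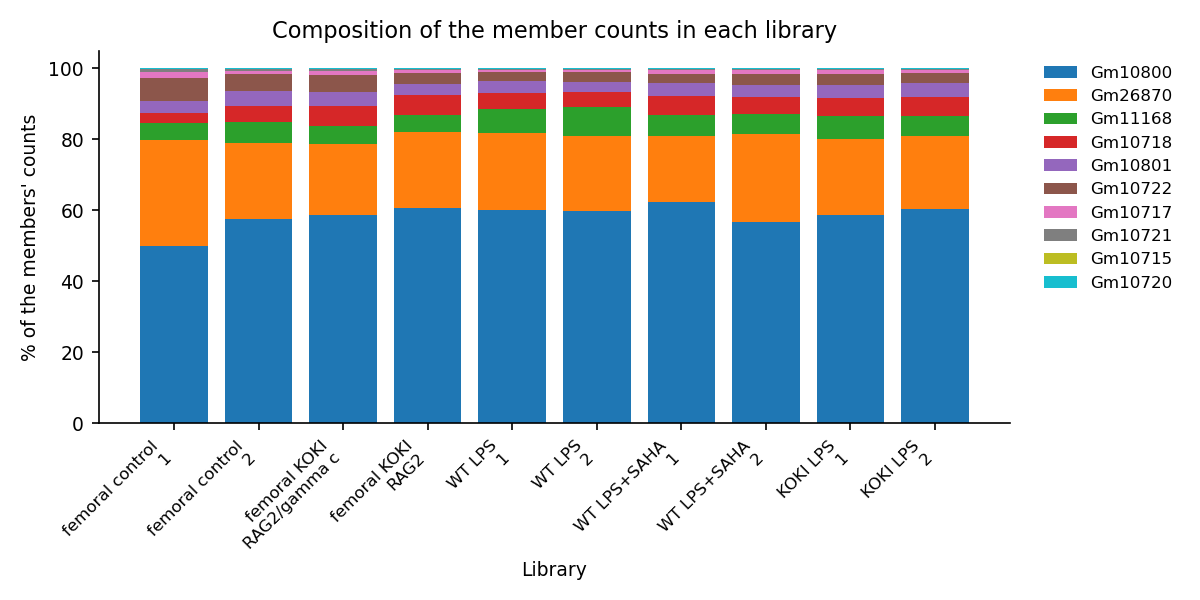
Share of each gene in the members' counts (y axis, percent, stacked to the whole) in each library (x axis). Gm10800 and Gm26870 fill most of every bar, at 49.9% to 62.3% and 18.8% to 30.0%.

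The share of the A-rich Gm26870 was also near constant when 3 further satellite rows, described below, were included. Which strand of the repeat those 3 rows carry was not examined. Gm26870 held 17.5% to 23.5% of these satellite counts in all libraries but femoral control replicate 1, where it held 27.9%. Its share was 20.4% and 20.1% in WT LPS, 17.5% and 23.5% in WT LPS+SAHA, and 19.9% and 19.4% in KOKI cultures. Among the members both strands were thus present in every group, and the summed level moved over a range far wider than this share.

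SAHA raises histone acetylation. The members were picked for their level in these same 4 WT libraries, of both kinds, though not for the difference between them, so the test that follows is not on libraries apart from the rule. No member passed the threshold of an adjusted p under 0.05 (0 of 10), although all 10 had a positive log2 fold change. The test was edgeR's quasi-likelihood F test with Benjamini-Hochberg adjustment over all genes, and 4.64% of the 15342 genes tested passed it (0.952% higher, 3.69% lower). At an unadjusted p under 0.05 there was 1 member, Gm10715, against 25.3% of all genes. DESeq2 called 0 members with adjustment, against 8.81% of all genes. At its unadjusted p under 0.05 there were 0 members too, and 3394 genes in all. The median log2 fold change was 0.80 over the members and 0.02 over all genes. Without WT LPS replicate 2, the higher of its group, 7 members passed, against 1.72% of all genes. The titles name the libraries WT 1 and WT 2 in each treatment without saying that a number is 1 animal. With that number as a block, on the 4 WT libraries alone, 8 of 10 members were called higher, against 8.29% of all genes. These 4 are the libraries the rule used, and the members share sequence, so these are not 8 separate results. Fitted on the same 4 libraries without the block, 0 members and 0% of all genes passed.

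The largest fitted difference was that of Gm10715, at 11.4 and 44.7 CPM in WT LPS and 52.3 and 89.5 in WT LPS+SAHA. Its log2 fold change was 1.36 ± 0.56 (SE), with an adjusted p of 0.175 in the edgeR fit. Gm10717 had 128 and 600.3 CPM in WT LPS and 751 and 960.1 with SAHA. Its log2 fold change was 1.25 ± 0.60. For both genes the groups did not overlap.

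Gm10720 (11.9 and 41.3 CPM against 49.0 and 54.4 with SAHA), Gm10801 (713 and 2758 against 2775 and 3442) and Gm10718 (1054 and 4158 against 4203 and 4778) also had both SAHA libraries above both WT LPS libraries. With them 5 of 10 members did not overlap, where 26% of all genes tested did so in that direction. The other 5 overlapped. Gm10721 had 79.6 and 292 CPM in WT LPS and 289 and 346 with SAHA, and Gm10722 had 606 and 2893 against 2020.1 and 3024.

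Among the more abundant genes, Gm10800 had a log2 fold change of 0.52 ± 0.60, Gm26870 of 0.61 ± 0.61 and Gm11168 of 0.02 ± 0.64. Gm11168 was at 1568 and 8151 CPM in WT LPS and at 4361 and 5393 with SAHA, so both SAHA libraries lay between the WT LPS libraries.

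In the libraries numbered 1 the sum was 22880 CPM with LPS and 76609 with LPS+SAHA, 3.35 times as high, and all 10 genes were higher with SAHA, by 2.78 to 5.86 times (median 3.76). In those numbered 2 the sum was 99380 and 98381 CPM, a ratio of 0.990, with single genes at 0.662 to 2.00 times (median 1.18). With plain library sizes the ratio in number 2 was 1.17, so its direction turns with the scaling, while number 1 stayed between 3.34 and 3.57 under the scalings tried. The group ratio of 1.43 thus rested on WT LPS replicate 1: its log2 value was 0.52, and −0.18 without that library.

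Other features moved with the SAHA libraries. Of 1292 olfactory receptor genes, which B cells are not known to use, 126 and 451 had a count in the SAHA cultures, against 46 and 47 in WT LPS and 22 and 15 in KOKI cultures. The summed level of 8 proliferation genes was 1429 to 1549 CPM with SAHA and 2835 to 2963 without. Their part in the satellite values was not tested.

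In femur, where the values had no part in choosing the genes, the KOKI pools were higher in most members and none passed the threshold. Gm10720 was too low to enter, and 0 of the 9 genes tested passed in edgeR's test, where 0.0301% of 16624 genes did. At an unadjusted p under 0.05 there were 8 of 9, against 16.2% of all genes. In DESeq2 there were 6 members at that threshold and 2503 genes in all, genes without an adjusted p included. DESeq2 with adjustment called 2 of the 8 it gave an adjusted p, Gm26870 and Gm10722, against 4.3% of all genes. The median log2 fold change was 1.45 over the 9 members and −0.02 over all genes. The KOKI pool with the controls' background was also compared alone, in a fit of all 10 libraries. There the median was 1.33 over the members, with single members from 0.11 to 1.80, and −0.006 over all genes. Leaving out a control changed the call: 6 members passed without replicate 1, against 12.2% of all genes, and 8 without replicate 2, against 19.9%.

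Gm10718 had the largest fitted value, at 3.78 and 18.9 CPM in the controls and 39.4 and 51.3 in the KOKI pools. Its log2 fold change was 2.02 ± 0.58 with an adjusted edgeR p of 0.179. The lowest adjusted p was that of the A-rich Gm26870, at 1.45 ± 0.35 and 0.141 in the same test. Gm10800 had 1.73 ± 0.51 and Gm10721 1.62 ± 0.44, from 0.959 and 1.39 CPM in controls to 3.87 and 3.32 in KOKI.

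Gm10801 (4.10 and 16.2 CPM in controls, 29.0 and 28.4 in KOKI), Gm11168 (5.96 and 23.5 against 36.5 and 43.2), Gm10717 (2.12 and 4.24 against 8.14 and 7.33) and Gm10722 (8.57 and 19.1 against 33.4 and 26.5) were likewise higher in both KOKI pools. In all, 8 of the 9 tested members had both KOKI pools above both controls, against 24.8% of all genes tested. As the members share sequence, these are not 8 separate results. Gm10715 overlapped, at 0.145 and 0.771 CPM in controls and 0.756 and 0.554 in KOKI, and so did Gm10720, at 0.145 and 0.267 against 0.222 and 0.895.

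The sum was 3.05 times as high in femoral KOKI as in controls, a log2 ratio of 1.61. The ratio was 1.01 without control replicate 1 and 2.65 without control replicate 2. Marker levels differed between these pools too. The proliferation genes summed to 4001 to 5636 CPM in controls and 2756 to 3106 in KOKI, and mitochondrial transcripts to 55273 to 62487 and 32958 to 35104 CPM. Their part in the satellite values was not tested.

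In the splenic cultures with LPS the order was the opposite, with the KOKI libraries below the WT ones for every member. The rule used this contrast, so the values are given without a test. The sum was 8.64 times as high in WT LPS as in KOKI cultures, and 12.4 times as high in WT LPS+SAHA. The fitted log2 fold change of KOKI against WT LPS ran from −3.47 for Gm11168 to −2.50 for Gm10717, with −3.11 for Gm10800 and −3.11 for Gm26870. Its median was −2.84 over the members, and −1.48 when WT LPS replicate 2 was left out. The log2 ratio of the sums went from −3.11 to −1.69 without it.

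The direction of the KOKI difference was alike in all members. Gm11168 had 1568 and 8151 CPM in WT LPS and 562 and 309 in KOKI, and Gm10801 had 713 and 2758 against 318 and 214. In all 10 genes both KOKI libraries were below both WT LPS libraries, as were 25.7% of the genes tested. The choice of members bears on this count, and nothing is read from it.

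**Figure D5:**
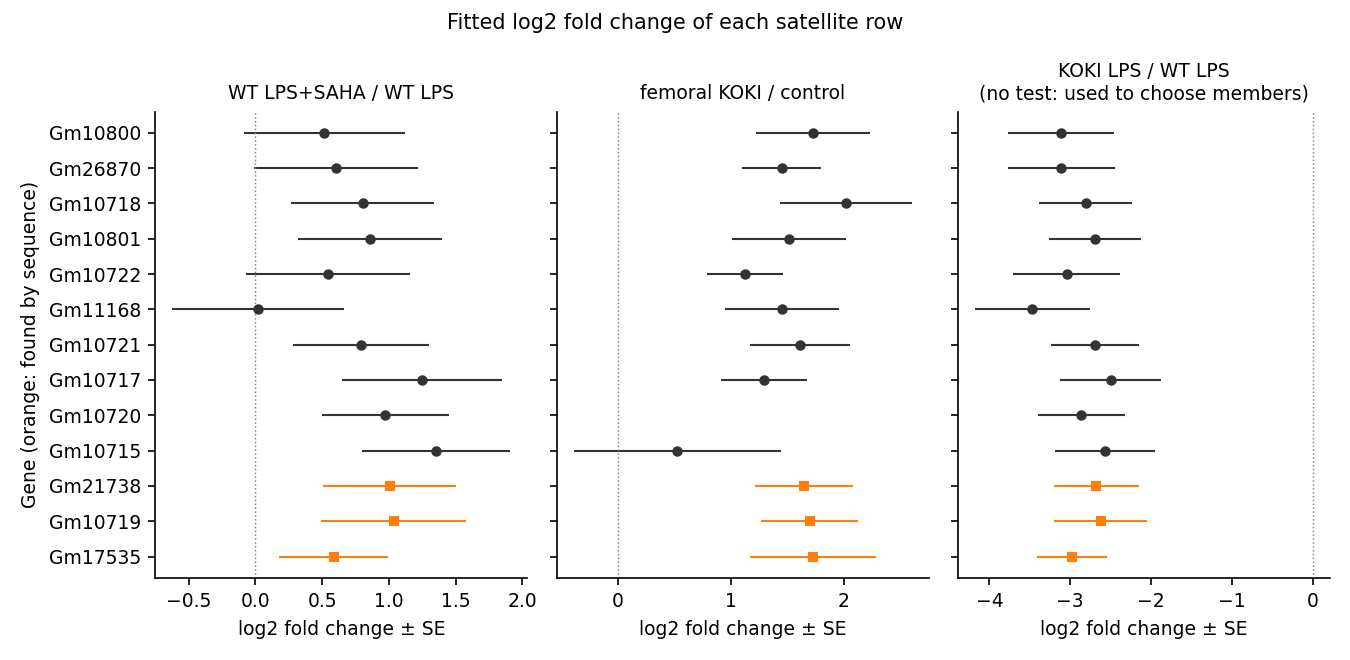
Fitted log2 fold change with its standard error (x axis) for each member and, in orange, for the 3 rows found by sequence, in the SAHA, femoral KOKI and splenic KOKI comparisons. Values lie right of 0 in the first and second and left of 0 in the third, where the members were chosen on the WT level and no test is given.

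Plasmablast markers summed to 1247 to 1406 CPM in KOKI cultures and 603 to 618 in WT LPS, and ribosomal-RNA-like rows to 18813 to 49910 CPM in KOKI, against 4989 to 18307 in the other libraries. Their part in the satellite values was not tested. In the KOKI libraries the satellite level was 8485 CPM in replicate 1 and 5664 in replicate 2, the replicate with Xist counts.

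A search of all 141767 GENCODE M21 transcripts for 31-base words of the members, on either strand, found 3 other genes. The rule had not picked them. Gm17535 (chr9:3034599-3035805, plus strand) shared 94.9% of its words and Gm10719 (chr9:3017408-3021593, plus strand) 90.8%, and both lie among the chromosome 9 members. Gm21738 (chr14:19415857-19418930, minus strand) shared 56.2% and lies on another chromosome.

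Gm21738 had 6.89 and 20.6 CPM in femoral controls, 36.2 and 49.3 in femoral KOKI, 870.4 and 2969 in WT LPS, 3581 and 4027 in WT LPS+SAHA, and 349 and 247 in KOKI cultures. It had the same order of groups as the members. Gm10719 (217 and 886 CPM in WT LPS, 108 and 70.1 in KOKI) and Gm17535 (358 and 899.6 against 96.8 and 61.3) were also lower in both KOKI cultures. With SAHA their log2 fold changes were 1.01 ± 0.50 for Gm21738, 1.04 ± 0.54 for Gm10719 and 0.59 ± 0.41 for Gm17535, and in femoral KOKI 1.65 ± 0.43, 1.70 ± 0.43 and 1.73 ± 0.56. None of these 6 values passed the edgeR test, with adjusted p from 0.149 to 0.410. They share sequence with the members, so reads may be shared too.

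Outside the satellite rows, the genes whose log2(CPM + 1) was most like that of the sum over the 10 libraries were Aim1l (Pearson r 0.991), Mir5107 (0.988), Fam167a (0.984) and Eme2 (0.982), among 20192 genes, after Gm21738 (0.999). Over the 6 splenic libraries they were Ppargc1b (0.992), Unc119 (0.992), Prss12 (0.992) and Hcrtr2 (0.988), among 19997 genes, again after Gm21738 (0.993). The libraries fall into separate groups and the best of many genes were taken, so these are descriptions of the ranking. Their highest levels ran from 1.34 CPM for Prss12 to 35.3 CPM for Fam167a.

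Genes of the machinery that packs the repeat were read from lists. The lists were chosen with earlier results of these data known, so the counts below are not from lists set apart from the data. Of 24 heterochromatin genes 22 were in the table. With SAHA 5 of the 22 fell and none rose in edgeR's test, where 3.69% of all genes fell. Their median log2 fold change was −0.33, against 0.02 over all genes. Suv39h2, which places H3 lysine 9 trimethylation, had 20.6 and 16.9 CPM in WT LPS and 7.34 and 9.62 with SAHA, a log2 fold change of −1.11 ± 0.19 with an adjusted edgeR p of 0.0301. Suv39h1, its paralogue, was at 76.2 and 85.8 CPM without and 44.0 and 52.1 with SAHA (log2 −0.72).

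Hells, a chromatin remodeller needed for DNA methylation of repeats, fell by 0.87 on the log2 scale. Uhrf1, which guides DNA methylation to newly copied DNA, fell by 0.73, and Hmga1, an AT-hook protein that binds AT-rich DNA, by 0.78.

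Of 20 centromere genes 19 were in the table. With SAHA 10 of the 19 fell in edgeR's test, where 3.69% of all genes fell, and none rose, against 0.952%. Their median log2 fold change was −0.77, against 0.02 over all genes. Cenpn, which binds the centromeric nucleosome, fell by 1.06, and the chromosomal passenger genes Birc5, Cdca8 and Aurkb by 1.06, 1.04 and 0.86 on the log2 scale. Several of these genes are high in dividing cells, and the proliferation genes above were lower in the SAHA libraries. Their part in these falls was not tested. Fitted on the 4 WT libraries alone, none of the 22 and none of the 19 passed, but neither did any other gene (0% of all genes). On leaving out 1 library the heterochromatin median ran from −0.41 to −0.30 and the centromere median from −0.87 to −0.63. The median over all genes ran from −0.03 to 0.08. With the WT number as a block on the 4 libraries, 12 of 22 (1 higher, 11 lower) and 15 of 19 (all lower) passed, against 22.8% of all genes.

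In KOKI cultures the satellite level was lowest among the splenic groups. There 0 of 22 heterochromatin and 0 of 19 centromere genes passed in edgeR's test, against 4.08% of all genes. At an unadjusted p under 0.05 there were 0 and 5, against 17.5%, and DESeq2 called 0 and 0, against 4.85%. The medians of these lists were 0.0035 and 0.18 on the log2 scale. In femoral KOKI 0 and 0 passed in edgeR's test as well, against 0.0301% of all genes. At an unadjusted p under 0.05 there were 4 and 4, against 16.2%, and DESeq2 called 1 and 1, against 4.3%. The medians were −0.02 and −0.04. A p that misses the threshold does not show that these genes were equal.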

How the data were processed

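The authors deposited a single table of raw counts of reads per gene. STAR 2.4.0a, featureCounts of Subread 1.4.6-p1 and mm10 (GRCm38) are named in the submitters' processing notes. Libraries were TruSeq Stranded Total RNA, per the labels' protocols. The annotation, the strand setting and the handling of multi-mapping reads are not given there. The 100 spike-in and phiX rows (1 to 17 counts per library) were left out. GENCODE M21 symbols matched 44145 genes (94.0%).

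Counts were tested with edgeR 4.0.16 in R 4.3.3 (TMM, filterByExpr with a minimum count of 10 and total of 15, quasi-likelihood F test, Benjamini-Hochberg adjusted p under 0.05 over all genes), with DESeq2 1.42.0 as an alternative. The 6 splenic libraries entered 1 fit in 3 groups (3 residual degrees of freedom) and the 4 femoral libraries another (2). The standard error is the log2 fold change over the root of F. CPM use TMM library sizes. No pair of replicates was a copy (chi-square per degree of freedom 92.6 to 160.7). On simulated counts the splenic fit was tested before use.

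The members and lists were chosen with earlier results of these data known. The text names all members, rows within 100 kb of one that reach 1 CPM, up to 5 called genes per direction and list, and the 5 genes most like the sum. Gm21738 was named for its sequence. One called gene of the centromere list is not reported here. Alternatives were other scaling, no filter, all 10 libraries in 1 fit, leaving out each library, and the replicate number as a block. Where a group was left with 1 library, the fit assumed for it the spread of the rest.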

Additional observations from a re-analysis of the deposited data

Results flagged for a closer look

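The KOKI difference of the summed satellite genes had opposite signs in spleen and femur. In spleen with LPS the log2 ratio of group means, KOKI against WT, was −3.11, and both KOKI libraries were below both WT libraries. In femur it was 1.61, KOKI against control, and both KOKI pools were above both controls. For single genes the same held in 8 of the 9 members tested in both fits, against 6.35% of the 14008 genes tested in both. The choice of members bears on the splenic side of that count, and the members share sequence, so they are not separate results. Gm10715 was the exception. Gm10720, too low for the femoral fit, did not have the pattern either. Both had the lowest levels per length. The difference between spleen and femur was not tested, since the members were chosen for their level in WT splenic cultures, and the sites differ in cell types and in background genotype.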

How the results depend on the processing

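With 2 libraries a group, most counts of calls moved with single libraries. Members called with SAHA (0) became 6 with no low-count filter, against 5.64% of all genes (1.44% higher). They were 8 with the replicate block on the 4 WT libraries, against 22.8% (8.29% higher). As the members share sequence, such counts are not counts of separate results. On leaving out 1 library the members' median log2 fold change with SAHA (0.80) ran from 0.13 to 2.10. The ends were without WT LPS replicate 1 and without WT LPS replicate 2. Members called in femoral KOKI (0) became 2 with DESeq2, against 4.3% of all genes, and 6 with no filter, against 2.65%. On leaving out 1 library their median log2 fold change (1.45) ran from 0.95 (without control replicate 1) to 2.12 (without control replicate 2). The log2 ratio of sums with SAHA (0.52) ran from −0.18 to 1.94 on leaving out 1 library (−0.18 without WT LPS replicate 1, 1.94 without WT LPS replicate 2). That for splenic KOKI ran from −3.81 to −1.69 and the members' median from −3.49 to −1.48, both highest without WT LPS replicate 2. That for femoral KOKI ran from 1.01 to 2.65, the latter without control replicate 2. Without WT LPS replicate 1, the SAHA values of Gm10800 (−0.19), Gm26870 (−0.091), Gm11168 (−0.73) and Gm10722 (−0.18) turned negative. Over the libraries left out they ran up to 1.93, 1.99, 1.66 and 2.08, each without WT LPS replicate 2, and Gm11168 was −0.16 without WT LPS+SAHA replicate 2. Femoral Gm10715 ran from −0.21 (without control replicate 1) to 2.12.

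Heterochromatin genes called with SAHA (5) were 9 with no filter, 1 with all 10 libraries, 0 on the 4 WT libraries, 12 with the replicate block and 0 to 2 without 1 library. Centromere genes (10) were 6 with all 10 libraries, 0 on the 4 WT libraries and 0 without WT LPS replicate 1 or either SAHA library. In femoral KOKI these lists (0 and 0) had 1 and 1 with DESeq2, 1 centromere gene with no filter, and 0 to 4 and 0 to 7 without 1 library. Over all genes, SAHA calls (712) were 1168 with DESeq2, 1970 with no filter, 211 with all 10 libraries, 0 on the 4 WT libraries (3765 at an unadjusted p under 0.05), 3413 with the replicate block and 0 to 290 without 1 library. Splenic KOKI calls (626) were 1254 with no filter and 270 to 332 without 1 library. Femoral KOKI calls (5) were 0 with DESeq2 size factors in edgeR, 616 with DESeq2, 662 with no filter, 0 with all 10 libraries, 0 when, in that fit of all 10, only the KOKI pool lacking RAG2 and gamma c was compared, and 13 to 3456 without 1 library. The causes were not tested. With SAHA, 0 of all genes passed on the 4 WT libraries and without WT LPS replicate 1 or either SAHA library. A list's 0 there therefore says nothing about that list. The share of all genes called with SAHA was 5.64% with no filter, 1.04% with all 10 libraries and 22.8% with the replicate block. The femoral list counts of 4 and 7 came without control replicate 2, where 3456 of all genes were called. Nothing is read from these list counts. The WT numbers deviated together (correlation 0.453 over 15342 genes), but with 2 pairs and no label saying that a number is one animal, the block is an alternative.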
